A study of Mus musculus with 8 samples.

Results

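Cholesterol and fatty acids are made from acetyl-CoA by a fixed set of enzymes whose genes are largely switched on by the SREBP transcription factors, and 34 genes of these pathways were followed in mouse retina at postnatal day 5. They were chosen by symbol, covering the sterol enzymes, the SREBP control system, fatty acid synthesis, and the desaturases and elongases. Of these, 33 were among the 16109 genes of the count table and all 33 passed the expression filter, as did 15850 genes in all; Hmgcs1 was not analysed here. The series holds 4 libraries labelled WT (wild type) and 4 labelled C3 KO, all from whole retinas of C57BL/6 mice of that age, with the embryonic hyaloid vessels removed. C3 is the central complement protein, and the study compared the genotypes while the retinal vessels develop. The labels do not state how the C3 allele was made or how many animals went into each library, so p-values measure only the spread between these libraries.

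In the sterol pathway, acetyl-CoA units are joined and reduced to mevalonate, built up to squalene, closed into the first ring sterol and trimmed to cholesterol. When membrane sterol is low, Scap carries the SREBP precursors to the Golgi, where the proteases encoded by Mbtps1 and Mbtps2 release the active factor, while the Insig proteins hold the complex back when sterol is plentiful. SREBP then acts at target promoters together with NF-Y, which binds CCAAT boxes, and Sp1, which binds GC boxes. The retina makes much of its own cholesterol, and its photoreceptor membranes are rich in very long polyunsaturated fatty acids that depend on the desaturases and elongases.

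Of the 6 genes called higher in this comparison (below), 4 have a RefSeq promoter entry, and the 250 bases before their annotated start are shown because these genes moved in the same direction. The windows are on GRCm38.p6, a different build from the one in the submitters' notes, and lie at chr19:6067851-6068100 (minus strand) for Tm7sf2, chr9:42264301-42264550 (minus strand) for Sc5d, chr10:76531355-76531604 (plus strand) for Lss and chr3:129532136-129532385 (plus strand) for Elovl6. Each is written 5′ to 3′ along the gene, and capitals mark a CCAAT box on either strand (ATTGG on the strand shown) or the E-box CACGTG.
Tm7sf2: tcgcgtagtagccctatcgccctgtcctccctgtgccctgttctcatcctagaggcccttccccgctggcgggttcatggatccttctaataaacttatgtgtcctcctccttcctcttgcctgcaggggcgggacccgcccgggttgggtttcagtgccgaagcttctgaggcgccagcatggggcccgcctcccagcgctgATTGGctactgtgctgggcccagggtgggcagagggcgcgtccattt
Sc5d: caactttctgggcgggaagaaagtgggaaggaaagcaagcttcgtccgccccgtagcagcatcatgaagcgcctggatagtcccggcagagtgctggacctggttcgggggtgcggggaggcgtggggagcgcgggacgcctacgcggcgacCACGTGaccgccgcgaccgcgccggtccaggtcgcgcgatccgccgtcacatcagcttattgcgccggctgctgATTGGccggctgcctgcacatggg
Lss: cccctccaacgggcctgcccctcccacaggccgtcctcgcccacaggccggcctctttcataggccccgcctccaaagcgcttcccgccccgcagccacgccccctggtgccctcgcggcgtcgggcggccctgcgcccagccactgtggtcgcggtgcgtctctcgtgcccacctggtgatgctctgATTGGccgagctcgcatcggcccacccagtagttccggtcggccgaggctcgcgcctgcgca
Elovl6: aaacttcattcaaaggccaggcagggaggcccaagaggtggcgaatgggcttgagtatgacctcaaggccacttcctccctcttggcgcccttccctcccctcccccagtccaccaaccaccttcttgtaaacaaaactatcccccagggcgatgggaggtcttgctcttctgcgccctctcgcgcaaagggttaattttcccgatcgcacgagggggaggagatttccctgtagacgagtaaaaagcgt

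A CCAAT box began 47 bases before the start of Tm7sf2, 24 before that of Sc5d and 62 before that of Lss, while the Elovl6 window had none. Tm7sf2, Sc5d and Lss each held 2 GC boxes (GGGCGG, either strand), and Sc5d also held an E-box. Of 26 listed genes with a promoter entry (1 of them, Sc4mol, matched through its current symbol Msmo1), 19 (73.1%) had CCAAT in this window, against 37.5% of 27025 genes. GGGCGG was present in 20 of 26 (76.9%, against 35.4% of all genes) and CACGTG in 6 of 26 (23.1%, against 6.86%). The 27025 genes were not limited to those expressed here, while the 26 had all passed the expression filter. Whether these shares differ from those of other expressed genes was not tested. The sterol regulatory element in the strict spelling TCACNCCAC was in none of the 26, and in 1.22% of all genes; that says only that these letters are not in this window. The longest run common to the Tm7sf2, Sc5d and Lss windows was 9 bases, ctgattggc, which contains the CCAAT box. It was also present before Idi1, Mvk and Srebf1, so in 6 of 26 listed genes (23.1%) and in 2.35% of all genes. Because 3 of the 6 served to find the run, that share describes the windows and was not tested. A match of letters is not evidence that a factor binds there.

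Total counts were 16503564 to 19608824 reads per library. The targeted gene went against the labels: C3 had 33 to 55 reads in each library labelled WT and 1419 to 1718 in each labelled C3 KO (log2 fold change 5.04 ± 0.10, SE; edgeR adjusted p = 1.39e-20). Gene counts do not show which part of C3 the reads cover, so reads of an altered and an intact allele cannot be told apart. The genotypes could have been exchanged in the labels, which was not tested. Every direction below is that of the labels; if they were exchanged, each gene given as higher would be lower in the knockout, and the reverse. Xist, from the inactive X chromosome of females, was at 295 to 2441 CPM (the read count scaled to a common, TMM-adjusted library size) under the WT label and 1.48 to 2.65 CPM under C3 KO, and summed Y-linked CPM was 1.79 to 303 and 299 to 353. The library labelled WT replicate 3 held both Xist (295 CPM) and Y-linked reads (303 CPM). Y-linked genes summed to 20.2 CPM in WT replicate 2 and 14.8 CPM in WT replicate 4, beside high Xist (2369 and 2195 CPM), while WT replicate 1 had 1.79 CPM. Sex-linked expression therefore moved with the label, and sex and label cannot be fully told apart. Photoreceptor and other neural retina markers were abundant in every library (summed 4740 to 6087 CPM over 9 of 9 markers), as the tissue label states.

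Across these genes the sterol enzymes leaned upward under the C3 KO label by small amounts, while the genes that start fatty acid synthesis did not. Of 33 genes, 6 were called higher and none lower at an edgeR adjusted p below 0.05. These were Tm7sf2, Sc5d, Lss, Fdps and Fdft1 of the sterol pathway and the elongase Elovl6. Over all genes 14.3% were called, 8.33% higher and 5.98% lower, so the 18.2% of the set that was called is near the background in number, and none of those calls was lower. Another 8 genes had an unadjusted p below 0.05 without passing, 7 with positive and 1 with a negative log2 fold change. The median log2 fold change was 0.12 over the 33 genes and 0.00 over all genes tested (0.004 before rounding), and 22 of 33 (66.7%) were positive against 50.9% of all genes. Among the 17 enzymes that lead to cholesterol, 15 (88.2%) were positive and the median was 0.16. Of these, 5 (29.4%) were called higher, against 8.33% of all genes. Whether these shares differ from those of all genes was not tested. No gene of the set changed by as much as 1 on the log2 scale. In whole-retina RNA, a change in the number of cells that express a gene cannot be told apart from a change in RNA per cell.

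**Figure D1:**
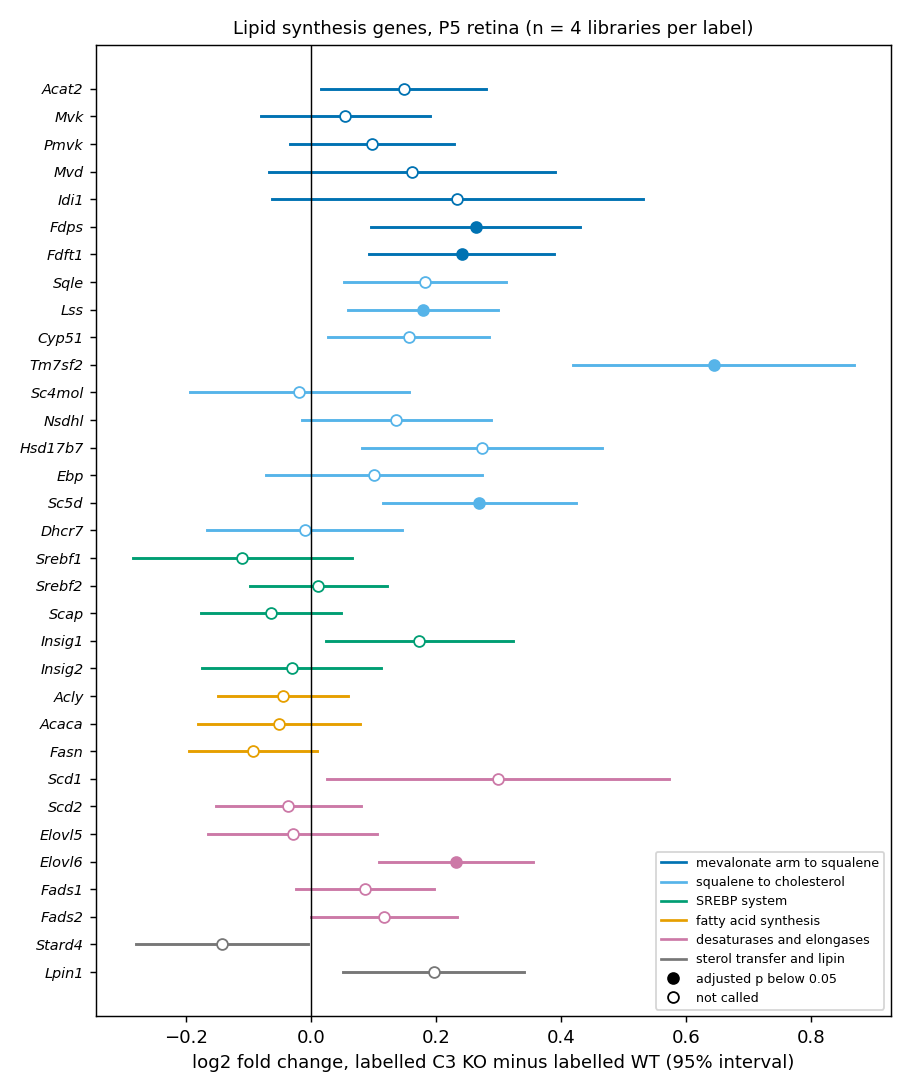
Log2 fold change of each of 33 genes (x axis, labelled C3 KO minus labelled WT) with its 95% interval, by role; filled points are called at an edgeR adjusted p below 0.05. Fdps, Fdft1, Lss, Tm7sf2, Sc5d and Elovl6 are filled, and the largest value is 0.64 for Tm7sf2.

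The number of calls moved with single libraries. Leaving out 1 library gave 1 to 8 calls, all higher: 1 without the library labelled WT replicate 2, 2 when C3 KO replicate 4 was left out, and 3 for each of WT 3, C3 KO 1 and C3 KO 3. When the level of Y-linked genes (mean log2 CPM) was added as a covariate 2 were called, Fdps and Elovl6, and over all genes 530 in place of 2269.

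The step from acetyl-CoA to squalene was represented by 7 genes, all with positive values (median 0.16). Of the 7, 2 were called higher, against 8.33% of all genes. Fdps, which makes farnesyl diphosphate, stood at 32.8, 27.5, 24.6 and 28.8 CPM in WT replicates 1 to 4 and at 33.3, 34.9, 32.8 and 35.6 CPM in C3 KO replicates 1 to 4. WT replicate 1 reached the level of the lowest C3 KO library, and the other WT libraries were below all of them. The means were 28.4 ± 3.41 and 34.1 ± 1.35 CPM (SD, n = 4), a 1.20-fold difference (log2 0.26 ± 0.08, SE; edgeR adjusted p = 0.0312). Fdps was called in 2 of 8 fits that left out 1 library, and was lost without WT replicate 2 (adjusted p = 0.0898), WT 3 (0.144), WT 4 (0.0559), C3 KO 1 (0.0516), C3 KO 2 (0.0679) or C3 KO 4 (0.106).

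Fdft1, squalene synthase, commits farnesyl units to sterols. It was at 61.1, 54.1, 53.7 and 57.9 CPM under WT and at 69.5, 56.2, 70.0 and 72.5 CPM under C3 KO. C3 KO replicate 2 lay within the WT range, and the other 3 lay above it. The difference was 1.18-fold (log2 0.24 ± 0.07, SE; edgeR adjusted p = 0.0271), and it was called in 3 of 8 such fits, with adjusted p-values of 0.0847, 0.0944, 0.0778, 0.0846 and 0.118 without WT 2, WT 3, C3 KO 1, C3 KO 3 and C3 KO 4. Fdft1 overlaps exons of Ctsb, a lysosomal protease on the other strand, which was itself called higher (log2 0.18, adjusted p = 0.00677). The strand setting of the counting is not stated in the labels or notes, so reads of this pair cannot be told apart where they overlap.

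The earlier enzymes did not pass. Acat2, which joins acetyl-CoA units, was at 45.03 to 45.5 CPM in the WT-labelled libraries and at 49.0, 45.3, 54.7 and 51.7 CPM under C3 KO, a log2 fold change of 0.15 (edgeR adjusted p = 0.126). Its WT-labelled libraries spread by only 0.204 CPM (SD), while its C3 KO-labelled libraries spread by 3.98 CPM. Mvk, mevalonate kinase, and Pmvk, the next kinase, had log2 fold changes of 0.05 and 0.10, and Mvd, which decarboxylates the product, 0.16 (95% interval −0.07 to 0.39). Idi1, which isomerises the first isoprenoid unit, was at 5.48, 6.29, 6.27 and 6.58 CPM under WT and at 6.67, 6.61, 8.91 and 6.76 CPM under C3 KO. The labels did not overlap, by a narrow margin, and the gene was not called (log2 0.23 ± 0.14, SE; edgeR adjusted p = 0.297).

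From squalene to cholesterol 10 genes were measured, 8 with positive values (median 0.17), and 3 were called higher, against 8.33% of all genes. Tm7sf2, a sterol reductase that acts just after Cyp51, differed most of the 33. Its levels were 9.89, 11.1, 10.8 and 9.60 CPM in WT replicates 1 to 4 and 16.2, 15.1, 18.8 and 14.7 CPM in C3 KO replicates 1 to 4, with a wide gap between the labels. Its mean was 10.3 ± 0.722 CPM under WT and 16.2 ± 1.85 CPM under C3 KO (SD, n = 4). It rose 1.56-fold (log2 0.64 ± 0.11, SE; edgeR adjusted p = 0.00035). The call held in all 8 fits that left out 1 library and was missed in 1 of 19 alternatives, the one with the Y-linked covariate (log2 0.57, adjusted p = 0.0604). Vps51, whose exons overlap Tm7sf2 on the same strand, differed by 0.05 (adjusted p = 0.676). Lbr, the lamin B receptor, carries the same reductase activity and was not on the list of 33. Its log2 fold change was −0.17 (edgeR adjusted p = 0.171).

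Sc5d, a sterol desaturase late in the pathway, was at 27.4, 24.0, 26.7 and 25.4 CPM under WT and at 30.0, 30.9, 30.5 and 33.4 CPM under C3 KO. All 4 C3 KO-labelled libraries were above all 4 labelled WT. It rose 1.20-fold (log2 0.27 ± 0.07, SE; edgeR adjusted p = 0.0178), and lost the call without WT replicate 2 (adjusted p = 0.0729) or C3 KO replicate 4 (0.0811), and with the Y-linked covariate (0.182). Lss, which closes squalene epoxide into lanosterol, was at 92.3, 79.6, 80.3 and 91.0 CPM under WT and at 94.4, 103, 94.6 and 96.5 CPM under C3 KO, so WT replicates 1 and 4 stood close to the C3 KO range. The difference was 1.13-fold (log2 0.18 ± 0.06, SE; edgeR adjusted p = 0.0395). Lss lost the call without WT 2, WT 3, C3 KO 1, C3 KO 2, C3 KO 3 or C3 KO 4 (adjusted p = 0.162, 0.17, 0.0603, 0.118, 0.0685 and 0.0994), with no filter on low counts (0.054) and with the Y-linked covariate (0.0543). An antisense gene, 4930483K19Rik, overlaps Lss in the annotation.

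**Figure D2:**
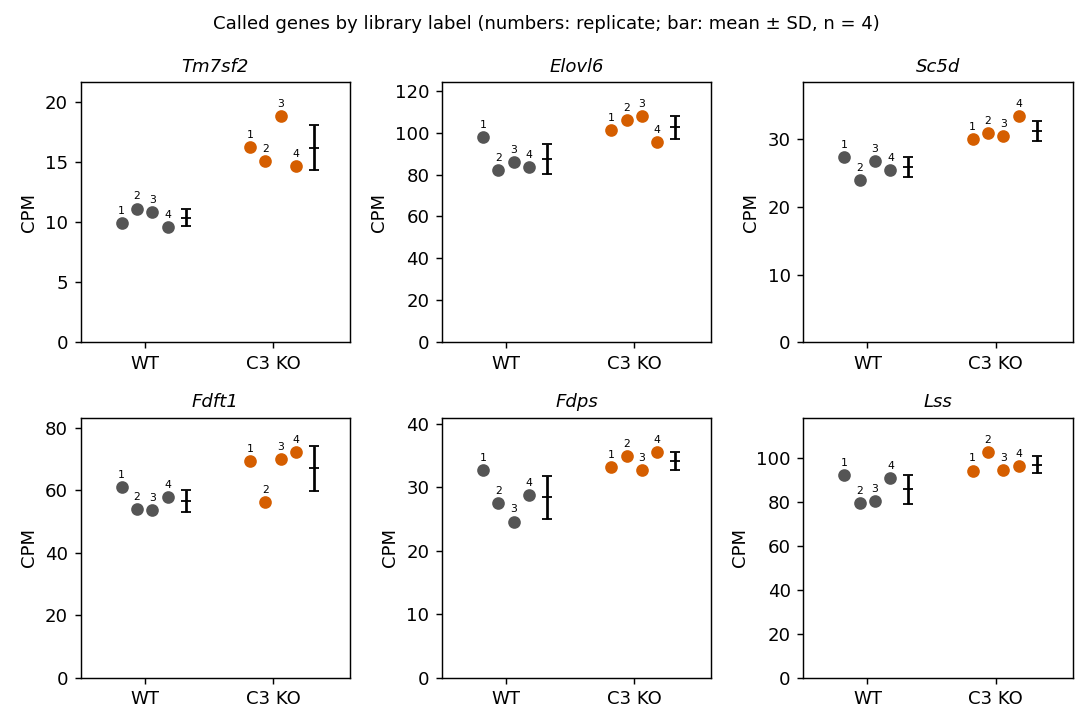
CPM (y axis, from 0) of the 6 called genes in each library, with replicate numbers and the mean ± SD of 4 libraries per label beside the points. Tm7sf2, Sc5d and Lss show no overlap between the labels, while 1 WT-labelled or C3 KO-labelled library of Fdps, Fdft1 and Elovl6 reaches into the other range.

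Other sterol enzymes lay near the threshold. Hsd17b7, a sterol ketone reductase, was at 15.3, 15.3, 14.0 and 16.4 CPM under WT and at 18.5, 17.7, 17.4 and 20.2 CPM under C3 KO, without overlap (log2 0.27 ± 0.09, SE; edgeR adjusted p = 0.0505). Sqle, which oxidises squalene and is a slow step of the pathway, was at 92.0, 74.0, 87.2 and 83.5 CPM against 93.5, 94.7, 104 and 90.3 CPM (log2 0.18, edgeR adjusted p = 0.0531), with C3 KO replicate 4 inside the WT range. Cyp51, the lanosterol demethylase, had a log2 fold change of 0.16 (edgeR adjusted p = 0.0992), and the WT and C3 KO ranges of 91.9 to 112 and 106 to 126 CPM overlapped. Its exons overlap those of Akap9 on the other strand (log2 0.14). Nsdhl, a sterol dehydrogenase, and Ebp, a sterol isomerase, had values of 0.14 and 0.10. Both lie on the X chromosome, and sex-linked expression moved with the label. The remaining pair were slightly negative. Sc4mol, the sterol methyl oxidase, was at −0.02 (95% interval −0.19 to 0.16), with C3 KO replicate 2 low at 37.0 CPM against 46.1 to 51.3 CPM in the others of that label. Dhcr7, which reduces the last precursor to cholesterol, was at −0.01 (−0.17 to 0.14).

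Of the 5 genes of the SREBP control system none passed. Srebf2, the SREBP gene that mainly drives sterol synthesis, was at 183 to 216 CPM under WT and 199 to 221 CPM under C3 KO (log2 0.01, 95% interval −0.10 to 0.12). Srebf1, whose product favours fatty acid genes, was at 118, 132, 125 and 143 CPM against 112, 140.1, 105 and 122 CPM (log2 −0.11, −0.29 to 0.06), and its exons overlap those of Rai1 on the other strand. Scap, the escort protein, had −0.06 (−0.18 to 0.05). Insig1 is itself a sterol-regulated target that restrains the system. It stood at 33.2, 34.0, 38.0 and 40.6 CPM under WT and at 43.7, 41.0, 40.3 and 39.2 CPM under C3 KO, with WT replicate 4 inside the C3 KO range (log2 0.17, 0.02 to 0.32; edgeR adjusted p = 0.113). Insig2, its relative, was at −0.03.

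Among 14 other genes of sterol synthesis and uptake 1 was called, lower, against 14.3% of all genes called in either direction. Of the 14, 5 had positive values (median −0.04). The called gene was Mbtps1, the protease that makes the first cut in SREBP precursors. It was at 177, 195, 178 and 187 CPM under WT and 158, 159, 157 and 155 CPM under C3 KO. The C3 KO-labelled libraries lay close together and below every WT-labelled library (log2 −0.23 ± 0.05, SE; edgeR adjusted p = 0.0018). In the list for sterol export, storage and breakdown, 1 gene of 13 measured rose and 1 fell (median −0.05). These 2 calls are near the 14.3% called over all genes. Lrp1, a large receptor for apolipoprotein E particles, rose 1.18-fold (edgeR adjusted p = 0.0214), and Scarb1, a lipoprotein receptor, fell by 0.15 on the log2 scale (edgeR adjusted p = 0.0484).

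The 3 genes that turn citrate into palmitate all had small negative values and none passed. Acly, which makes cytosolic acetyl-CoA, was at 435 to 489 CPM under WT and 421 to 465 CPM under C3 KO (log2 −0.04, 95% interval −0.15 to 0.06). Acaca, which makes malonyl-CoA, was at −0.05 (−0.18 to 0.08). Fasn, the fatty acid synthase, was at 419, 377, 388 and 414 CPM against 349, 383, 387 and 379 CPM, with C3 KO replicate 1 lowest of all libraries (log2 −0.09, −0.20 to 0.01; edgeR adjusted p = 0.222). Whether this group differed from the sterol enzymes was not tested.

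Of 6 desaturases and elongases 1 passed. Elovl6, which lengthens palmitate, was at 97.9, 82.0, 86.0 and 83.5 CPM under WT and at 101, 106, 108 and 95.5 CPM under C3 KO. WT replicate 1 was above C3 KO replicate 4, and the others were separate. It rose 1.17-fold (log2 0.23 ± 0.06, SE; edgeR adjusted p = 0.0105), and the adjusted p was 0.051 without WT replicate 2 and 0.0502 without C3 KO replicate 3. The call was kept with the Y-linked covariate (0.0413), and an antisense gene, Gm35986, overlaps Elovl6 in the annotation.

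The stearoyl-CoA desaturases Scd1 and Scd2 make oleate from stearate. Scd1 was at 8.30, 6.00, 7.02 and 7.66 CPM under WT and at 8.45, 8.38, 9.87 and 9.04 CPM under C3 KO. The labels did not overlap, by a narrow margin, and the gene was not called (log2 0.30 ± 0.13, SE; edgeR adjusted p = 0.135). Scd2, the form that predominates in neural tissue, was at 509 to 617 CPM and 512 to 570.2 CPM (log2 −0.04, 95% interval −0.15 to 0.08). The labels and notes do not say how reads shared by these related genes were assigned. Fads1 and Fads2 put double bonds into polyunsaturated fatty acids; their log2 fold changes were 0.09 and 0.12 (edgeR adjusted p = 0.307 and 0.175). Elovl5, which lengthens such fatty acids, was at −0.03.

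The list of other fatty acid synthesis and elongation genes had 2 of 17 measured genes called higher and 1 lower (median 0.06). These 3 calls are near the 14.3% called over all genes. Elovl7, an elongase of saturated chains, was at 8.25, 7.57, 6.91 and 5.01 CPM under WT and at 10.3, 14.8, 13.1 and 9.72 CPM under C3 KO, without overlap (log2 0.78 ± 0.16, SE; edgeR adjusted p = 0.00194). Tecr, the reductase that completes each elongation cycle, had means of 243 ± 4.92 and 285 ± 6.68 CPM (SD, n = 4) and rose 1.17-fold (edgeR adjusted p = 0.00102). Acsl3, which activates fatty acids, fell by 0.32 on the log2 scale (edgeR adjusted p = 0.0136).

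The last pair were Stard4, which moves cholesterol between membranes, and Lpin1, a phosphatidate phosphatase. Stard4 was at 46.4, 45.9, 40.3 and 47.3 CPM under WT and at 38.4, 40.8, 42.9 and 40.9 CPM under C3 KO, with WT replicate 3 inside the C3 KO range, and did not pass (log2 −0.14, 95% interval −0.28 to −0.01; edgeR adjusted p = 0.158). Lpin1 was at 44.3, 46.7, 43.2 and 40.6 CPM against 46.7, 57.1, 47.5 and 49.0 CPM (log2 0.20, edgeR adjusted p = 0.063), and C3 KO replicate 2 stood above the others.

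The highest values within a label were unevenly spread over its libraries. C3 KO replicate 3 was the highest of the 4 C3 KO-labelled libraries for 19 of 33 genes (57.6%) and for 10 of the 17 sterol enzymes (58.8%), against 27.1% of all genes tested. Under the WT label, replicate 1 was highest for 14 of the 33, replicate 4 for 13 and replicate 3 for none, against 27.8%, 25.9% and 19.5% of all genes. The lowest values under WT were more even, with 7, 11, 8 and 7 of the 33 in replicates 1 to 4. The median log2 fold change of the 33 genes fell from 0.12 to 0.07 without C3 KO replicate 3. Summed over the 17 sterol enzymes, the WT-labelled libraries held 696 to 750.5 CPM and the C3 KO-labelled ones 759 to 844 CPM, replicate 3 being the highest. Without overlap between the labels were 6 of the 33 genes (18.2%, against 17.4% of all genes): Idi1, Lss, Tm7sf2, Hsd17b7, Sc5d and Scd1, each higher under C3 KO.

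**Figure D3:**
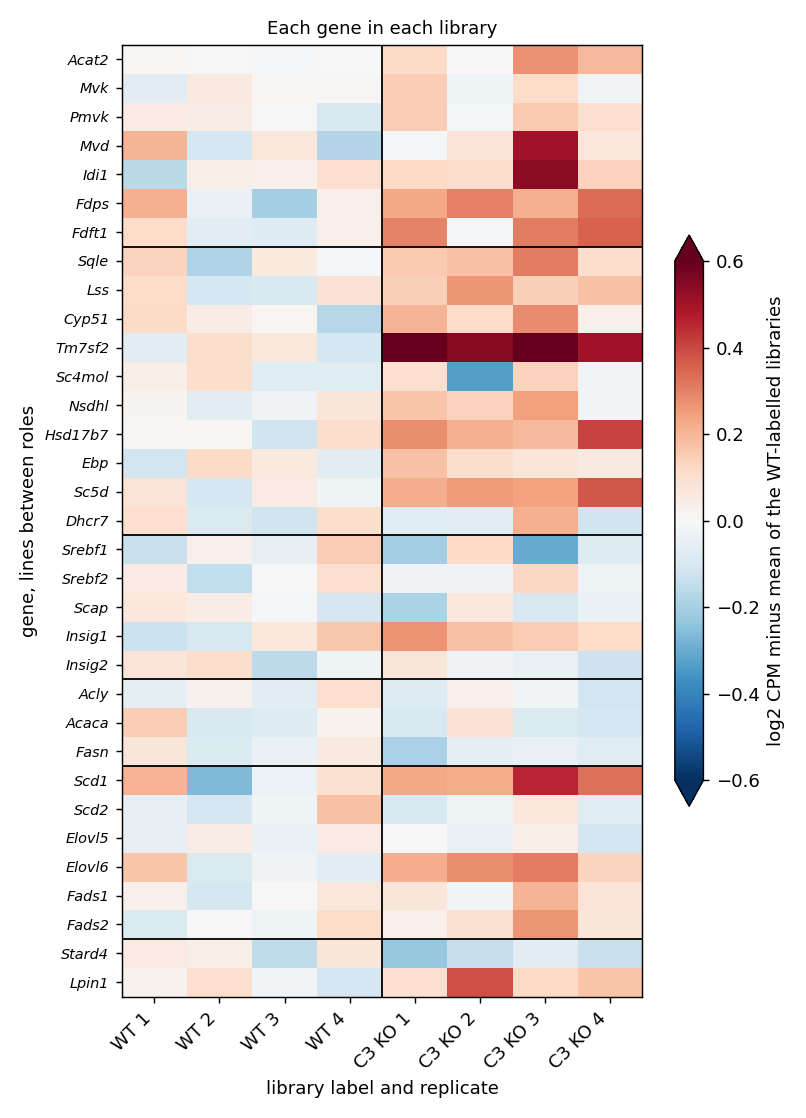
Log2 CPM of each gene (rows, grouped by role) in each library (columns) minus its mean over the 4 WT-labelled libraries, red where higher and blue where lower. Tm7sf2 is the darkest row under C3 KO, and Mvd and Idi1 are darkest in C3 KO replicate 3.

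Marker genes of several cell types moved with the same labels. Summed CPM of 11 measured pigment epithelium markers was 279 to 318 under WT and 370.02 to 392 under C3 KO (6 called higher). Of the 11, 10 had positive log2 fold changes (median 0.88). The exception was Rlbp1, also a Mueller glia marker, with means of 206 CPM under WT and 175 CPM under C3 KO. Rlbp1 made up most of the WT sum (mean 299 CPM), so the sum understates the rise of the other markers. The sum of 10 microglia markers was 149.9 to 191 and 193 to 231 CPM (3 higher), and that of 5 astrocyte markers 204 to 263 and 268 to 343 CPM (2 higher). For 4 fibroblast and sclera markers the ranges were 4.25 to 7.86 and 9.88 to 15.3 CPM (2 higher), and for 5 red blood cell genes 28.5 to 51.2 and 18.1 to 23.2 CPM (5 lower). Markers of Mueller glia, the radial glia of the retina, overlapped at 1529 to 1898 and 1518 to 1557 CPM (10 of 10 measured, 3 lower). Of the 10, 9 had negative log2 fold changes. WT replicate 1 (1529 CPM) alone lay inside the C3 KO range, and WT replicates 2 to 4 were above it at 1719 to 1898 CPM. Markers of myelinating glia overlapped too, at 51.3 to 64.8 and 54.5 to 67.0 CPM (3 of 5 measured), and 0 of 6 adipocyte markers were measured. No measured marker list was at 0 in any library. The part of these cell types in the sterol gene values was not tested.

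Compared per length, the genes spanned a wide range of levels in these retinas. On the RPKM scale (reads scaled by gene length and library size, from the authors' deposited log2 values) Scd2 was highest, at 101 ± 9.13 under WT and 97.6 ± 4.51 under C3 KO (SD, n = 4), followed by Acly (86.6 and 83.4) and Fads2 (76.0 and 81.8). Acly and Fads2 overlapped between libraries under C3 KO but not under WT. Srebf2 (40.9 and 40.9) and Fasn (40.7 and 37.9) came next and overlapped between libraries under WT but not under C3 KO. Fads1 (34.9 and 36.8) lay below Fasn in every WT-labelled library and overlapped it under C3 KO. The lowest were Scd1 (1.53 and 1.86), Idi1 (2.19 and 2.55), Hsd17b7 (3.02 and 3.62) and Tm7sf2 (3.01 and 4.66). The gene that differed most between the labels was thus among the least abundant per length, while Scd2, Acly, Fads2, Srebf2 and Fasn were not called.

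**Figure D4:**
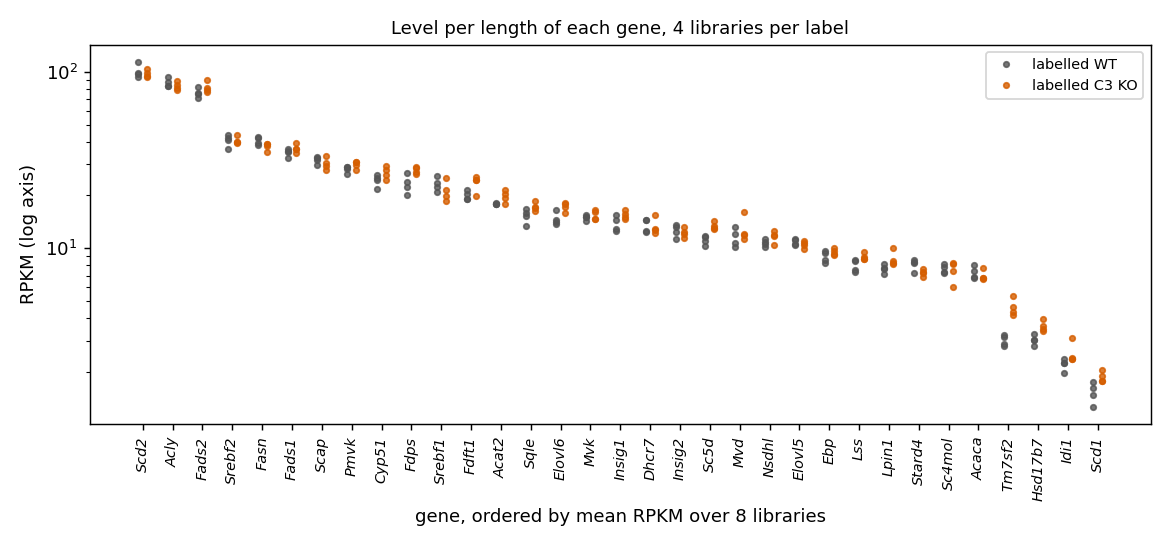
RPKM (log axis) of each of 33 genes in each library, ordered by the mean over 8 libraries; grey points are labelled WT and orange points C3 KO. Scd2, Acly and Fads2 lie highest, and Tm7sf2, Hsd17b7, Idi1 and Scd1 lie lowest.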

How the data were processed

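Poly(A) RNA of whole postnatal day 5 retinas was sequenced from directional libraries, per the labels' protocols, with 4 libraries per label. The deposited counts are whole reads per gene symbol; per the submitters' processing notes, the tools were STAR and HTSeq (no version given) and the builds mm9 and NCBIM37. Every gene in the count table has at least 15 reads in at least 1 library. The second deposited table holds log2 RPKM made by the authors; with an offset of 2 reads scaled by library size they follow the counts within 0.014, and were turned back to RPKM.

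Counts were tested in R 4.3.3 with edgeR 4.0.16 (filterByExpr, which left out 259 genes, TMM, robust quasi-likelihood F test, C3 KO against WT, no covariate), with Benjamini-Hochberg adjustment over 15850 genes and a threshold of 0.05. The SE is the log2 fold change over the root of its F. The fit was tested on simulated data. Alternatives used limma 3.58.1, DESeq2 1.42.0, other scalings and filters, a replicate block, a Y-linked covariate and 1 library left out. The genes, lists and tests were chosen with earlier results of these data known. All listed genes measured are named; from other pathway lists the called genes are named, at most 4 a list (some genes the rule names are not reported here); Lbr, and genes that overlap a listed gene, were added after values were seen. Promoters are from RefSeq; no called gene held the strict sterol element, so those of called genes with an entry are shown. GENCODE M21 (GRCm38) gave overlaps by name only.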

Additional observations from a re-analysis of the deposited data

Results flagged for a closer look

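In 5 of 66 sets of 4 libraries (33 genes under each label), 1 library stood apart from the other 3 by Dixon's test, and chance flags about 1 in 20. In 4 of the 5 it was C3 KO replicate 3. Mvd was at 28.4 CPM there against 19.9 to 21.1 CPM in the other C3 KO-labelled libraries, and Idi1 at 8.91 against 6.61 to 6.76 CPM. Dhcr7 was at 58.6 against 46.6 to 48.3 CPM, and Srebf2 at 221 against 198.5 to 199.99 CPM. Acaca was at 78.1 CPM in C3 KO replicate 2 against 68.4 to 69.4 CPM in the others. None of these 5 genes was called between the labels. C3 KO replicate 3 had 17795644 reads, within the range of the other libraries.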

How the results depend on the processing

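Of 19 alternatives, all gave 0 genes called lower and a positive median for the 33 genes. Limma on log2(RPKM + 1) and on log2(RPKM + 0.1) called 2 higher each, Tm7sf2 and Sc5d (1490 and 1479 over all genes), and the Y-linked covariate called 2 (530 over all genes). Leaving out 1 library gave 1 to 8 higher, and 1305 (without C3 KO replicate 4) to 2543 over all genes. With replicate number as a block 9 were called higher and 2400 over all genes; the block ended the call of none of the 6. Same-numbered libraries did not deviate together (correlations −0.06 to 0.09; of the 4 numbers, replicate 2 alone matched its own best). The main fit therefore used no pairing, though these correlations cannot exclude one. C3 was called in all 19. Dhcr7, Sc4mol, Srebf2, Insig2, Acaca and Scd2 changed sign in some alternatives without being called in any. Depth and 4 libraries per label limit what can be called: the lowest gene by CPM, Idi1, has an SE of 0.14. The cause of the lost calls was not tested.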

Other observations

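The list for fatty acid oxidation held 1 call in each direction. So 2 of 13 measured genes were called, which is near the 14.3% called over all genes. Of the 13, 9 were negative, with a median log2 fold change of −0.04. Cpt1a, which lets long-chain fatty acids into mitochondria, was at 195, 184, 164 and 161 CPM in WT replicates 1 to 4 and at 140.1, 164, 133 and 150.1 CPM in C3 KO replicates 1 to 4 (log2 −0.26 ± 0.07, SE; edgeR adjusted p = 0.0169). Its neuronal relative Cpt1c was at 30.6, 29.0, 27.5 and 31.1 CPM against 31.8, 36.9, 39.3 and 42.5 CPM, without overlap (log2 0.35 ± 0.08, SE; edgeR adjusted p = 0.00593).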
